A study of Mus musculus with 4 samples.

Results

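The genes described here make up the killing machinery of lymphocytes: the granzymes Gzma, Gzmb, Gzmk and Gzmm, the pore protein gene Prf1, the granule membrane gene Nkg7, the cytokine and death ligand genes Ifng and Fasl, and the transcription factor genes Tbx21 and Eomes. They were chosen by name, and all 10 are columns of the deposited tables, which hold 20640 genes. Their levels were compared by radiation dose in natural killer (NK) cells and in CD8, CD4 and γδ T cells, which were gated on marker genes that include no member of the list.

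The study profiled single cells of mouse lungs that carried HKP1 tumours, HKP1 being a mouse lung adenocarcinoma line. All mice, those of the 0 Gy group included, were female C57BL/6 animals of 8 weeks that had received 150000 HKP1 cells into the tail vein and had been grouped by bioluminescence on day 6. The groups differed in the dose given on each of 3 days from day 10 to day 12, 0 Gy (mock) or 4 Gy from a small animal irradiator, and lungs were taken 24 to 48 h later. Live (DAPI-negative) cells of 4 mice per treatment were sorted by CD45, the surface protein of blood-borne cells, and each dose and sort gave 1 library of 10x Genomics 3′ RNA-seq. No map from cells to mice was used here, so each dose is 1 sample, no test between doses was made, and the intervals below cover counting error only.

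Cytotoxic lymphocytes store granzymes, which are serine proteases, with perforin in secretory granules. On contact with a target cell the granules are released, perforin opens the target's membrane, and the granzymes enter and start cell death. The transcription factors T-bet (Tbx21) and Eomes drive this programme in NK and CD8 T cells, and NK cells carry the transcripts before they meet a target, whereas naive T cells largely do not.

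The members lie on 7 chromosomes of the mouse genome (build GRCm38, the same assembly as mm10, GENCODE annotation). Gzma (chr13:113093825-113100981, minus strand) and Gzmk (chr13:113171608-113225908, minus strand) are neighbours, Gzmb lies at chr14:56258838-56262260 (minus strand) and Nkg7 at chr7:43437073-43438249 (plus strand). Chromosome 10 holds Gzmm (chr10:79689020-79695261), Prf1 (chr10:61297833-61304680) and Ifng (chr10:118441046-118445892), all on the plus strand. Fasl lies at chr1:161780689-161788495 (minus strand), Tbx21 at chr11:97098071-97115331 (minus strand) and Eomes at chr9:118478212-118486132 (plus strand). The 250 bases before the start site are shown for Gzma, Gzmb and Prf1, the proteases and the pore whose NK levels were compared by dose, and for Ifng, the cytokine gene of the list. They come from RefSeq (GRCm38.p6) and are read 5′ to 3′ on the gene's strand, with capitals for matches to a RUNX core (TGTGGT), a T-box core (GGTGTG) or a STAT motif (TTCNNNGAA) on either strand.
Gzma: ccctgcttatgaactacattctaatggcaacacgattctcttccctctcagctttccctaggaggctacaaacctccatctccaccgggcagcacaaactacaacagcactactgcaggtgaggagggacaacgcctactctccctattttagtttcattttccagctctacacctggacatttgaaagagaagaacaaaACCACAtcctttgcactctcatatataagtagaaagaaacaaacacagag
Gzmb: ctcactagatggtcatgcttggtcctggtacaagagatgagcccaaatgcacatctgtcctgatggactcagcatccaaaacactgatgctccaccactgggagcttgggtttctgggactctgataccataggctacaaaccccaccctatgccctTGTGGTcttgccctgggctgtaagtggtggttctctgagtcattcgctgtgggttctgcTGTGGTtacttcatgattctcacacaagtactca
Prf1: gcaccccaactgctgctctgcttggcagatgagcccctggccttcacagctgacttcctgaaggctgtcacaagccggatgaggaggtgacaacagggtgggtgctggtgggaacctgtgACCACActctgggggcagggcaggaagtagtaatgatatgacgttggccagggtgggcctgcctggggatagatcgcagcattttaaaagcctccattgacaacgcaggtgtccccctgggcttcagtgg
Ifng: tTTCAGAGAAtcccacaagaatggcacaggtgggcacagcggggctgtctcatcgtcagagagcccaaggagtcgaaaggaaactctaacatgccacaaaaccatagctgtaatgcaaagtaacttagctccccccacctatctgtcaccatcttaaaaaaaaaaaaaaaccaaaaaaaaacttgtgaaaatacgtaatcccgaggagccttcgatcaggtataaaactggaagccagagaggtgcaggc
These windows are chr13:113100982-113101231 (minus strand) for Gzma, chr14:56262335-56262584 (minus strand) for Gzmb, chr10:61297586-61297835 (plus strand) for Prf1 and chr10:118440796-118441045 (plus strand) for Ifng.

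The capitals in Gzma and Prf1 are ACCACA, the RUNX core read on the other strand, and those in Gzmb are TGTGGT at 2 places. The capitals in Ifng are a STAT match, TTCAGAGAA. Over the 10 genes, 5 had a RUNX match in the window (Gzma, Gzmb, Gzmm, Nkg7 and Prf1), compared with 14.0% of all 32851 mouse promoters of that length. A T-box match stood before 4 genes (Fasl, Gzmk, Gzmm and Nkg7) against 16.3% of all promoters, and a STAT match before 3 (Gzmm, Ifng and Nkg7) against 7.02%. The T-box and RUNX cores can overlap in a run of letters, but no matches overlapped in the windows of the members. Gzmm was counted over 2 start sites, so 11 windows were searched. A match is a description of the letters and not a binding site.

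The CD45-positive libraries held 24045901 UMIs (unique molecular identifiers, each 1 captured RNA molecule) in 5415 cells at 0 Gy and 36423571 UMIs in 9608 cells at 4 Gy, with medians of 3096 and 2606 UMIs per cell. After removal of 235 and 739 likely doublets, 5180 and 8869 cells remained. The libraries shared 3 to 17 cell barcodes in each pair, 10 of them between the CD45-positive libraries. The gates gave 378 and 765 NK cells (7.30% and 8.63% of the cells kept, at 0 Gy and 4 Gy), 437 and 891 CD8 T cells (8.44% and 10.1%), 252 and 396 CD4 T cells (4.87% and 4.47%) and 38 and 78 γδ T cells. NK genes outside the gate followed it: Klrk1, which encodes an activating receptor, stood at 1527 and 1473 CPM (UMIs of the gene per 1000000 UMIs of the class) in gated NK cells and at 0.445 and 1.87 CPM in B cells. Tcrg-C1, a constant segment of the γ chain of the T cell receptor, stood at 239 and 147 CPM in gated γδ cells and at 0.737 to 5.0 CPM in CD4 and CD8 cells. Cdkn1a, the p53 target gene for the cell cycle inhibitor p21, was at 13.2 CPM at 0 Gy and 57.6 CPM at 4 Gy in NK cells and at 3.09 and 10.7 CPM in CD8 cells.

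NK cells held more UMIs of Gzma, Prf1, Gzmb, Eomes, Fasl, Tbx21 and Nkg7 than any other gated class at either dose. Gated NK cells held 86.3% of all Gzma UMIs of the CD45-positive library at 0 Gy and 84.2% at 4 Gy, 75.9% and 74.8% of Prf1, 71.4% and 59.4% of Gzmb, 58.2% and 65.5% of Eomes, 53.9% and 57.5% of Fasl, 47.3% and 59.1% of Tbx21 and 44.5% and 46.9% of Nkg7. For Gzmk, a granzyme of memory T cells, and Gzmm the leading gated class was CD8 cells, with 58.8% and 52.2% of Gzmk and 36.7% and 37.1% of Gzmm. Ifng was divided between NK cells (29.2% and 25.7%), CD8 cells (27.2% and 29.7%) and CD4 cells (12.8% and 27.1%). In CD45-negative libraries Gzma was found in 6 of 5979 cells at 0 Gy (11.0 CPM) and in 1 of 4313 at 4 Gy (3.86 CPM), and Ifng in 1 and 0 cells.

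**Figure D1:**
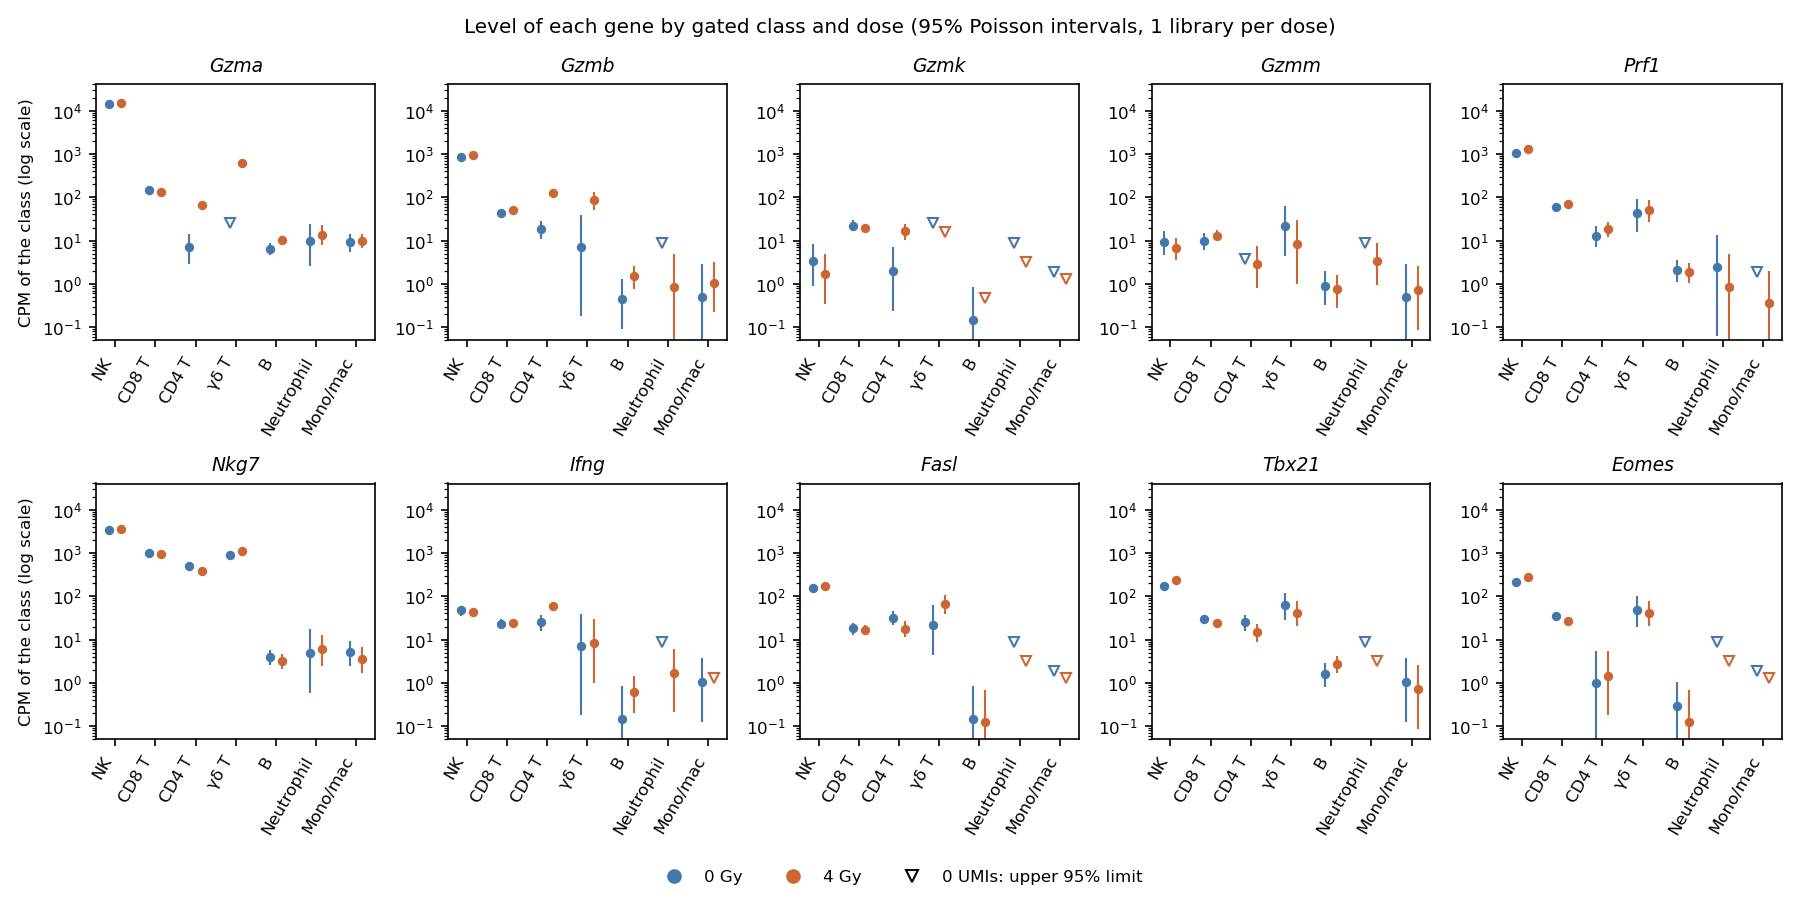
Level of each of the 10 genes, in CPM of the class on a log axis, in 7 gated classes at 0 Gy (blue) and 4 Gy (orange), with 95% Poisson intervals; open triangles mark the upper limit where no UMI was found. NK cells lead for Gzma, Gzmb, Prf1, Nkg7, Fasl, Tbx21 and Eomes, and the Gzma and Gzmb points of CD4 and γδ cells lie further apart between doses than those of NK and CD8 cells.

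B cells, which lack granzymes and perforin, were used for the level that free RNA can reach, though some B cells make T-bet. Gzma was found in 2.10% of B cells at 0 Gy and 2.67% at 4 Gy (6.52 and 10.2 CPM from 44 and 82 UMIs, median depth 2760 and 2253 UMIs), never with more than 2 UMIs in a cell. For the other 9 members the B cell level was at most 4.00 CPM. Across classes, Gzma stood in the order NK, CD8 and B cells, with steps larger than the counting intervals at either dose. The CD4 level of Gzma at 0 Gy, 7.0 CPM (2.82 to 14.4), was not apart from the B cell level. For Nkg7, the intervals of CD8 and γδ cells overlapped (1003 and 901 CPM at 0 Gy, 948 and 1107 CPM at 4 Gy), NK cells stood above both and CD4 cells below. For Eomes, CD8 cells (35.3 and 26.1 CPM) and γδ cells (49.3 and 42.1 CPM) overlapped in their intervals, and CD4 cells held 1 and 2 UMIs.

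In NK cells no measured member differed by 1.5-fold in either direction. That fold, on a gene with at least 20 UMIs over both libraries, is the size used here to name a difference. Of the 10 members 9 had enough UMIs, 0 were higher and 0 were lower, while 17.5% of 9487 genes measured in these cells were past the fold (12.0% higher and 5.55% lower). The median log2 ratio of 4 Gy over 0 Gy was 0.19 over the 9 members and 0.07 over all genes. NK cells were shallower at 4 Gy, with a median of 2127 UMIs per cell against 2903.

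Gzma, whose product is a tryptase, had 16977 UMIs at 0 Gy and 26238 at 4 Gy. Its level was 14046 CPM at 0 Gy and 14662 CPM at 4 Gy, a ratio of 1.04 (95% counting interval 1.02 to 1.06). The scaling decided its side of 1: with the mean over cells the ratio was 0.998, and with median-of-ratios scaling it was 0.995. Gzma was found in 97.1% and 97.3% of NK cells. After each cell was thinned to 1000 UMIs, which left out 8 and 10 shallower cells, the median NK cell had 16 Gzma UMIs at either dose, the lower quartile was 7 and 9.5 UMIs and the upper quartile 23 and 21.

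Gzmb, the protease that cuts caspases and their substrates, stood at 829 CPM at 0 Gy and 962 CPM at 4 Gy, a ratio of 1.16 (1.07 to 1.26). It was found in 67.2% and 66.1% of NK cells, and in 43.0% (37.9% to 48.2%) and 50.3% (46.7% to 54.0%) after thinning. Gzmm was sparse, with 11 and 12 UMIs. Gzmk had 4 and 3 UMIs in all NK cells and was not compared.

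Prf1, the pore protein gene, stood at 1072 CPM at 0 Gy and 1317 CPM at 4 Gy, a ratio of 1.23 (1.15 to 1.32). The share of NK cells with a Prf1 UMI was 86.8% and 85.8%, and 61.4% (56.2% to 66.3%) and 66.6% (63.1% to 70.0%) after thinning. Nkg7, whose product sits in the granule membrane and takes part in granule release, was at 3382 and 3528 CPM, a ratio of 1.04 (1.0 to 1.09), and with median-of-ratios scaling 0.995.

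The transcription factor genes had ratios whose intervals lay above 1 in NK cells. Tbx21 stood at 176 CPM (153 to 202) at 0 Gy and 243 CPM (220 to 267) at 4 Gy, a ratio of 1.38 (1.17 to 1.63). Eomes stood at 218 CPM (192 to 246) and 279 CPM (255 to 304), a ratio of 1.28 (1.10 to 1.49). A Tbx21 UMI was found in 38.36% and 41.18% of NK cells, and an Eomes UMI in 43.39% and 42.75%. After thinning, 17% of NK cells had a Tbx21 UMI at 0 Gy and 23.6% at 4 Gy, and 19.5% and 23.2% had one of Eomes. The intervals of the thinned shares overlapped between doses for both genes. Over 9 settings of the analysis the ratios ranged from 1.27 to 1.42 for Tbx21 and from 1.22 to 1.32 for Eomes.

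Fasl, the ligand of the death receptor Fas, was at 155 and 176 CPM in NK cells, a ratio of 1.14 (0.946 to 1.37). Ifng, the gene of the cytokine that activates macrophages and raises antigen presentation, was at 47.2 and 43.6 CPM, a ratio of 0.924 (0.649 to 1.32). Ifng UMIs were found in 11.1% and 8.76% of NK cells, and no NK cell held more than 3.

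**Figure D2:**
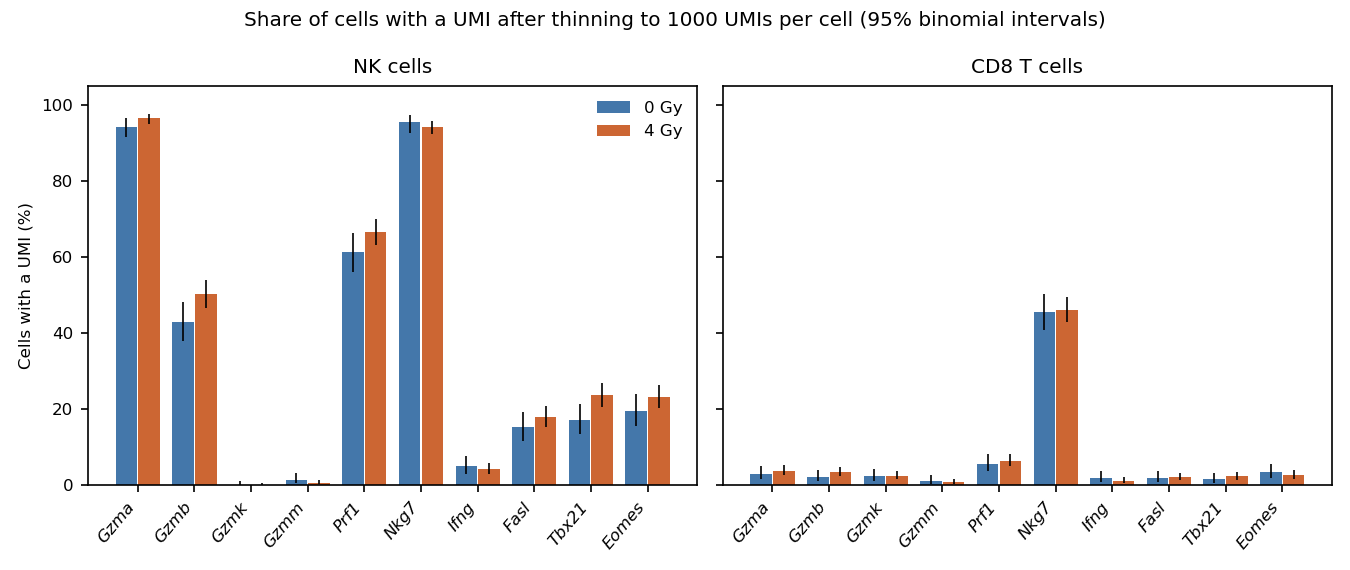
Share of NK cells (left) and CD8 T cells (right) with at least 1 UMI of each gene after thinning to 1000 UMIs per cell, at 0 Gy (blue) and 4 Gy (orange), with 95% binomial intervals. In NK cells Gzma and Nkg7 are found in over 94% of cells at both doses, and the bars of Gzmb, Prf1, Tbx21 and Eomes are higher at 4 Gy; in CD8 cells Nkg7 is the only member above 10%.

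NK cells pass from a Cd27-positive stage to a mature stage with Itgam and without Cd27. The gates found 129 and 281 Itgam-positive Cd27-negative cells and 73 and 113 Cd27-positive cells, and the other 176 and 371 NK cells had UMIs of neither gene. Gzma stood at 18370 and 17162 CPM in the mature cells and at 8594 and 9061 CPM in Cd27-positive cells, Prf1 at 1460 and 1564 CPM against 691 and 657 CPM, and Gzmb at 1060 and 1130 CPM against 421 and 396 CPM. At each dose these 3 genes were therefore higher in the mature cells, by steps beyond the counting intervals. By dose, 0 of 8 measured members were past 1.5-fold in the mature cells (13.9% of 6487 genes were higher and 8.83% lower). In Cd27-positive cells 1 of 8 was, against 15.1% of 4452 genes higher and 10.2% lower: Tbx21, at 101 CPM (28 UMIs) at 0 Gy and 164 CPM (51 UMIs) at 4 Gy, a ratio of 1.63 (1.01 to 2.69). In the mature cells Tbx21 had 91 and 170 UMIs and a ratio of 1.11 (0.854 to 1.445), an interval that includes 1.

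Some members were found in the same NK cells more often than in the rest. Among NK cells with a Prf1 UMI, 71.3% had a Gzmb UMI at 0 Gy and 69.2% at 4 Gy, against 40% and 47.7% of NK cells without Prf1. Of NK cells with Gzmb, 100.0% and 99.4% also had Gzma, against 91% and 93% of NK cells without Gzmb. Gzma was in 97.1% and 97.3% of all NK cells, which leaves little room for a difference. Cells with Prf1 were deeper at 0 Gy (median 2985 against 2555 UMIs) and close in depth at 4 Gy (2131 against 2095). Tbx21 and Eomes were closer to independent: 40.2% and 42.2% of Eomes-positive NK cells had Tbx21, against 36.9% and 40.4% of the rest. On thinned cells the mean number of members with a UMI per NK cell was 3.52 at 0 Gy and 3.77 at 4 Gy, whereas 98.7% and 97.7% of B cells had none.

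Of the marker sets of other cell types, T cell receptor genes stood highest in NK cells. Summed over 3 genes, of which the gate excludes Trac, they were at 332 CPM at 0 Gy and 301 CPM at 4 Gy. In CD8 cells they were at 1838 and 1743 CPM. Summed over 3 genes each, neutrophil markers were at 24.8 CPM at 0 Gy and 93.9 CPM at 4 Gy (79246 and 103722 CPM in gated neutrophils), macrophage markers at 85.2 and 76.0 CPM, and B cell markers at 14.9 and 15.7 CPM. Plasma cell markers stood at 87.7 and 95.6 CPM, plasmacytoid dendritic cell markers at 47.2 and 54.8 CPM and endothelium markers at 60.4 CPM at either dose. Basophil and mast cell markers were at 0 UMIs for both genes measured. The part of these cell types in the NK values was not tested.

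In CD8 T cells as a whole 10 of 10 members had enough UMIs, 0 were higher and 0 lower, against 15.4% of 10917 genes past 1.5-fold (9.51% higher and 5.91% lower). The median log2 ratio was -0.09 over the members and 0.02 over all genes. Nkg7 stood at 1003 and 948 CPM, a ratio of 0.945 (0.896 to 0.997), and was found in 82.4% and 80.1% of CD8 cells. The remaining members were each below 150 CPM at either dose. Prf1 was at 58.3 and 68.5 CPM (1.18, 0.949 to 1.46), Gzmb at 42.4 and 49.6 CPM (1.17, 0.910 to 1.51), Gzmk at 22.1 and 19.2 CPM (0.869, 0.598 to 1.27) and Gzmm at 9.72 and 13.1 CPM (1.35, 0.798 to 2.34). Tbx21 was at 29.6 and 24.0 CPM (0.811, 0.585 to 1.13), Fasl at 18.1 and 16.5 CPM (0.913, 0.606 to 1.39) and Eomes at 35.3 and 26.1 CPM (0.740, 0.545 to 1.01). Each of these intervals except that of Nkg7 includes 1. In CD8 cells neutrophil markers stood at 29.6 and 58.4 CPM and macrophage markers at 76.4 and 172 CPM, and their part was not tested.

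Gzma in CD8 cells stood at 145 CPM at 0 Gy and 135 CPM at 4 Gy, a ratio of 0.929 (0.807 to 1.07), which hid differences of opposite sign in its splits. CD8 cells with at least 2 UMIs of a set of naive T cell genes that includes Ccr7 and Lef1 (306 and 648 cells) are called naive-like here. Those with at most 1 of them and at least 1 UMI of Cd44, S100a4, Cxcr3 or Cxcr6 (111 and 156 cells, 25.4% and 17.5% of CD8 cells) are called memory-like, and CD4 cells without Foxp3 were split by the same rule. In memory-like cells Gzma stood at 225 CPM (122 UMIs) at 0 Gy and 470 CPM (294 UMIs) at 4 Gy, a ratio of 2.09 (1.69 to 2.61). In naive-like cells it stood at 125 CPM (207 UMIs) and 61.7 CPM (178 UMIs), a ratio of 0.496 (0.403 to 0.608), although the share of naive-like cells with a Gzma UMI was 4.25% at 0 Gy and 7.72% at 4 Gy (2.29% and 1.54% after thinning).

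Few cells carried these Gzma UMIs. Among memory-like cells, 3 of 111 at 0 Gy and 10 of 156 at 4 Gy had at least 5 Gzma UMIs, and they held 112 of 122 and 268 of 294 UMIs. All 3 of those cells at 0 Gy, and 1 of the 10 at 4 Gy, also had UMIs of an NK gate gene (Ncr1, Klrb1c or Klre1). With every cell that had such a UMI left out, an alternative chosen after seeing the data, memory-like Gzma was at 19.7 CPM (9 UMIs) at 0 Gy and 457 CPM (239 UMIs) at 4 Gy, and naive-like Gzma at 73.3 and 14.7 CPM. In naive-like cells 3 cells held 197 of 207 UMIs at 0 Gy, and 1 cell held 99. Without the richest cell of each library the naive-like ratio was 0.783 (0.607 to 1.01) and the memory-like ratio 3.23 (2.39 to 4.44).

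Memory-like CD8 cells had more of most effectors than naive-like cells at each dose: Nkg7 at 2187 and 2346 CPM against 633 and 643 CPM, Gzmb at 125 and 189 CPM against 16.3 and 21.5 CPM, Prf1 at 122 and 134 CPM against 37.9 and 53.4 CPM, and Ifng at 90.3 and 130 CPM against 2.41 and 2.43 CPM. Eomes was at 40.5 and 44.8 CPM in memory-like and 34.3 and 21.9 CPM in naive-like cells, with intervals that overlapped at 0 Gy and not at 4 Gy. Gzmm was at 11.1 and 8.00 CPM in memory-like cells (6 and 5 UMIs) and at 9.63 and 14.2 CPM in naive-like cells, with overlapping intervals. By dose, 2 of 9 measured members were higher in memory-like cells, Gzma and Gzmb (1.51, 1.11 to 2.06), and 0 lower, against 11.2% of 6674 genes higher and 11.0% lower. In naive-like cells 1 of 9 was higher, Fasl (3.61 and 7.63 CPM from 6 and 22 UMIs; 2.11, 0.831 to 6.37), and 2 were lower, Gzma and Eomes (0.637, 0.438 to 0.928), against 11.9% of 10035 genes higher and 5.12% lower. Fasl reached the minimum through the 4 Gy library, so its call supports no direction. Without the richest cell of each library the naive-like ratio of Gzmb was 2.40 (1.19 to 5.37) in place of 1.32.

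Ifng in CD8 cells stood at 23.4 CPM at 0 Gy and 24.0 CPM at 4 Gy, a ratio of 1.03 (0.722 to 1.47). Cycling CD8 cells, with at least 2 UMIs of Mki67, Top2a, Cdk1 and Birc5, numbered 15 at 0 Gy and 23 at 4 Gy. They held 2 of 53 Ifng UMIs at 0 Gy and 51 of 90 at 4 Gy. The richest CD8 cell held 17 Ifng UMIs at 0 Gy, where it was not cycling, and 29 at 4 Gy, where it was. Without the richest cycling cell of each library, cycling cells held 0 and 22 Ifng UMIs. Outside cycling cells Ifng stood at 24.1 and 11.1 CPM, a ratio of 0.460 (0.295 to 0.712), and 0.513 (0.301 to 0.867) without the richest cell.

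**Figure D3:**
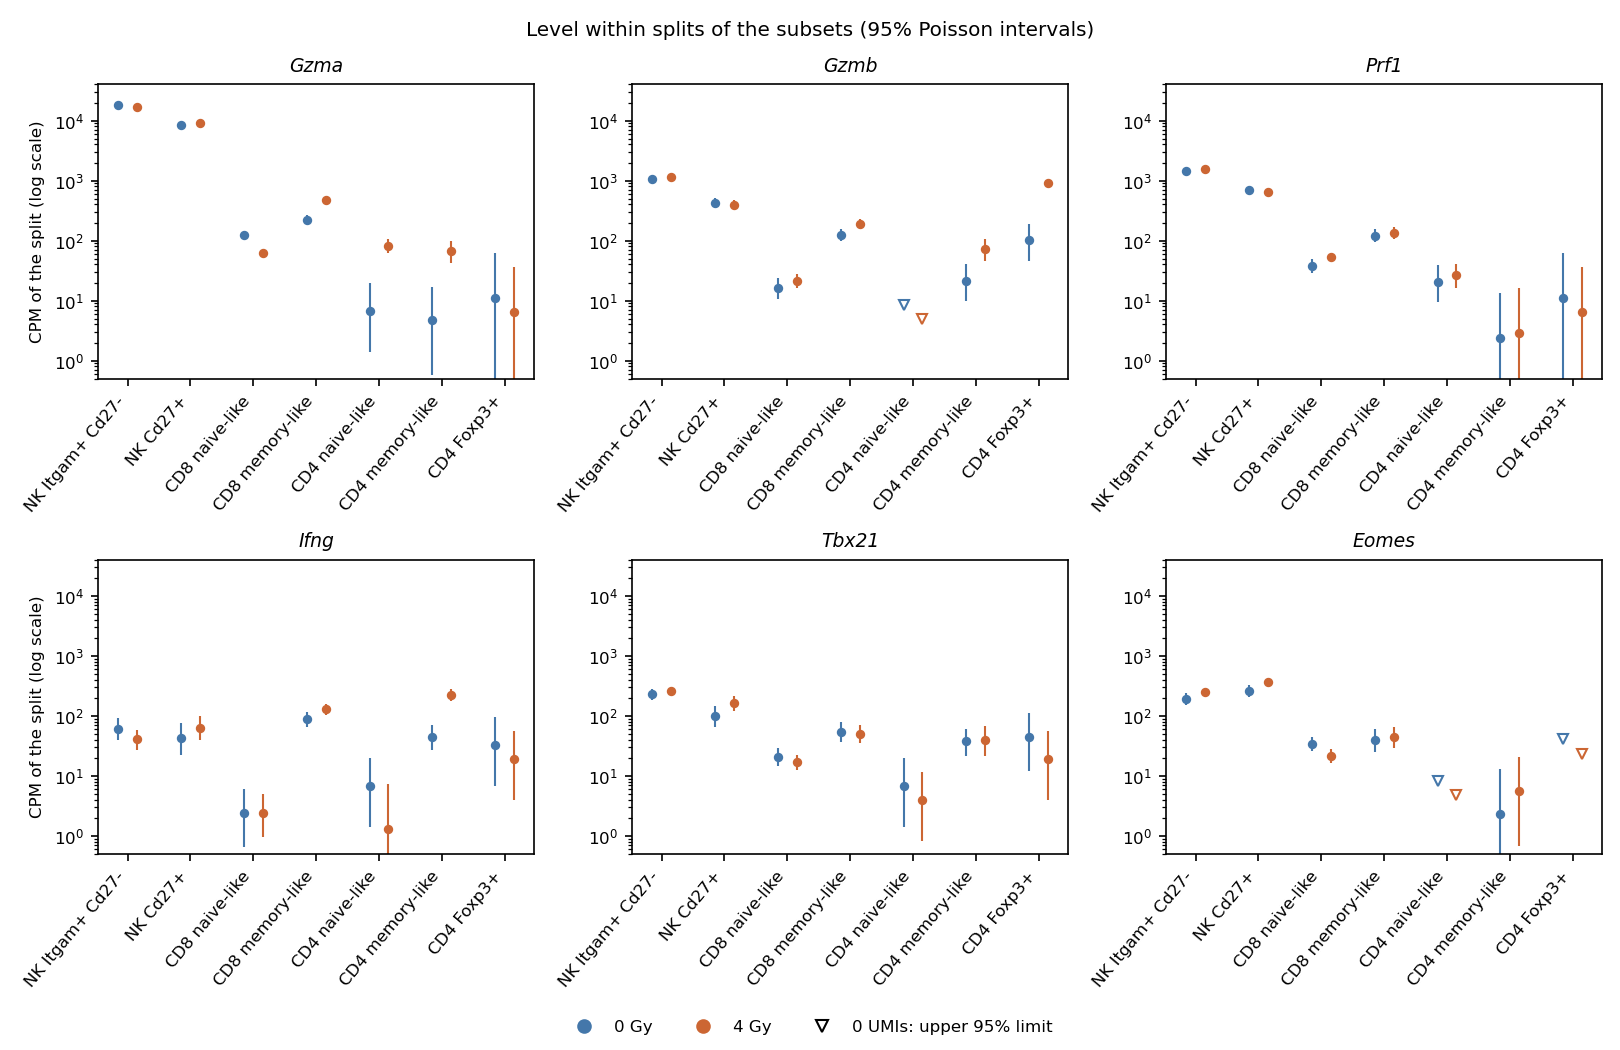
Levels of 6 members, in CPM on a log axis, in splits of NK, CD8 and CD4 cells at 0 Gy (blue) and 4 Gy (orange) with 95% Poisson intervals; open triangles mark the upper limit where no UMI was found. Gzma is higher at 4 Gy in CD8 memory-like cells and lower in CD8 naive-like cells, Gzmb is higher at 4 Gy in Foxp3-positive CD4 cells, and Ifng is higher in CD4 memory-like cells. In those CD4 splits Gzmb had 9 UMIs and Ifng 19 UMIs at 0 Gy, so these points support no direction.

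In CD4 T cells 8 members had enough UMIs, of which 4 were higher at 4 Gy (Gzma, Gzmb, Gzmk and Ifng) and 2 lower (Fasl and Tbx21), against 18.8% of 8810 genes past the fold (9.17% higher and 9.66% lower). Gzma, Gzmb and Gzmk had under 20 UMIs at 0 Gy and reached the minimum through the 4 Gy library, so the count describes these cells and supports no direction. NK gate genes were rare in CD4 cells, with 8 UMIs at 0 Gy and 19 at 4 Gy (8.0 and 14.0 CPM). Summed neutrophil markers stood at 32.0 and 64.1 CPM, macrophage markers at 53.0 and 74.5 CPM and B cell markers at 16.0 and 15.5 CPM, and their part in the CD4 values was not tested.

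Gzmb in CD4 cells stood at 18.0 CPM (18 UMIs) at 0 Gy and 124 CPM (168 UMIs) at 4 Gy, a ratio of 6.88 (4.22 to 11.9). It was found in 9 of 252 and 22 of 396 cells. The 3 richest cells at 4 Gy, with 49, 29 and 25 UMIs, all had a UMI of Foxp3, the lineage factor of regulatory T cells. Among Foxp3-positive CD4 cells (18 and 32 cells) Gzmb stood at 101 CPM (9 UMIs) at 0 Gy and 916 CPM (142 UMIs) at 4 Gy. The ratio was 9.11 (4.67 to 20.3), or 10.2 (4.20 to 32.0) without the richest cell of each library. Gzmb reached the minimum of 20 UMIs through the 4 Gy library, so its call in these cells supports no direction. At least 5 Gzmb UMIs were found in 0 of 18 Foxp3-positive cells at 0 Gy and in 8 of 32 at 4 Gy, and these 8 held 133 of the 142 UMIs with no NK gate gene among them. Any Gzmb UMI was found in 22.2% (6.41% to 47.6%) and 40.6% (23.7% to 59.4%) of Foxp3-positive cells, and in 5.56% and 25% after thinning, which left out none of them. The share of B cells with a Gzmb UMI was 0.143% and 0.406%, at median depths of 2760 and 2253 UMIs against 4171 and 3566 in Foxp3-positive cells.

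Prf1 did not go with Gzmb in Foxp3-positive cells: 1 UMI was found at each dose. Gzma was also at 1 UMI at each dose. Of the 10 members, 2 had at least 20 UMIs in these cells, Gzmb and Nkg7 (268 and 219 CPM; 0.818, 0.471 to 1.44), and 19.2% of 2226 genes were higher and 16.0% lower there. Naive-like CD4 cells (103 and 223 cells) held no Gzmb UMI at either dose, which allows up to 6.81 CPM and 3.98 CPM by the floor of 3 counts (8.38 and 4.90 CPM by the exact Poisson limit). Memory-like CD4 cells (113 and 100 cells) had 9 and 25 Gzmb UMIs, 21.3 and 71.9 CPM, a ratio of 3.37 (1.52 to 8.21).

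Gzma in CD4 cells stood at 7.0 CPM (7 UMIs, in 7 cells) at 0 Gy and 64.9 CPM (88 UMIs, in 15 cells) at 4 Gy, a ratio of 9.26 (4.31 to 23.7). At 4 Gy 1 cell held 54 UMIs (61.4%), and the next held 14 and 8. The cells with 54 and 14 UMIs also had 4 and 8 UMIs of NK gate genes. Without cells that had an NK gate gene, Gzma stood at 7.29 and 14.4 CPM, a ratio of 1.97, and with T cells gated on at least 1 UMI of the CD3 genes the ratio was 1.31. The share of CD4 cells with a Gzma UMI, 2.78% and 3.79%, was near that of B cells.

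Gzmk was at 2.0 CPM (2 UMIs) and 16.2 CPM (22 UMIs), a ratio of 8.11 (1.99 to 71.1), and was spread over 2 cells at 0 Gy and 10 at 4 Gy, with at most 4 UMIs in a cell; without the richest cell of each library the ratio was 13.3 (2.10 to 554). Of the 22 UMIs at 4 Gy, 15 were in memory-like cells. No Gzmk UMI was found in B cells at 4 Gy. Gzmm had 0 and 4 UMIs in CD4 cells and Eomes 1 and 2.

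Ifng in CD4 cells stood at 25 CPM (25 UMIs, in 18 cells) at 0 Gy and 60.5 CPM (82 UMIs, in 24 cells) at 4 Gy, a ratio of 2.42 (1.53 to 3.95). At 4 Gy 1 cell held 41 of the 82 UMIs, and without the richest cell of each library the ratio was 1.38 (0.802 to 2.43). Within memory-like CD4 cells, which held 19 and 78 of these UMIs, Ifng was at 45.0 and 224 CPM, a ratio of 4.98 (2.99 to 8.72), or 2.87 (1.56 to 5.52) without the richest cell. An Ifng UMI was found in 13 of the 113 memory-like cells of the 0 Gy library and in 21 of the 100 of the 4 Gy library. Memory-like cells made up 44.8% (38.6% to 51.2%) of CD4 cells at 0 Gy and 25.3% (21.1% to 29.8%) at 4 Gy, and naive-like cells 40.9% and 56.3%.

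Fasl and Tbx21 were lower in CD4 cells as a whole at 4 Gy, and Nkg7 was within 1.5-fold. Nkg7 stood at 506 CPM (463 to 552) and 374 CPM (342 to 408), a ratio of 0.738 (0.652 to 0.837), and in memory-like cells at 1040 and 1199 CPM, a ratio of 1.15 (1.01 to 1.32). Fasl was at 32.0 and 17.7 CPM (32 and 24 UMIs; 0.553, 0.312 to 0.968), and at 47.4 and 46.0 CPM in memory-like cells (0.971, 0.471 to 1.97). Tbx21 was at 25 and 14.7 CPM (25 and 20 UMIs; 0.590, 0.311 to 1.11), and at 37.9 and 40.3 CPM in memory-like cells (1.06, 0.480 to 2.32). Prf1 was at 13.0 and 18.4 CPM (1.42, 0.698 to 3.02). Of the 6 members measured in memory-like CD4 cells 3 were higher (Gzma, Gzmb and Ifng) and 0 lower, against 11.9% of 5481 genes higher and 11.0% lower. These 3 had 2, 9 and 19 UMIs at 0 Gy and reached the minimum through the 4 Gy library, so the count supports no direction. Of the 3 in naive-like cells 1 was higher, Gzma, whose 62 UMIs at 4 Gy included the 54 of the cell with NK gate genes, against 14.6% of 6229 genes higher and 11.6% lower. Gzma had 3 UMIs there at 0 Gy, so this call too supports no direction.

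**Figure D4:**
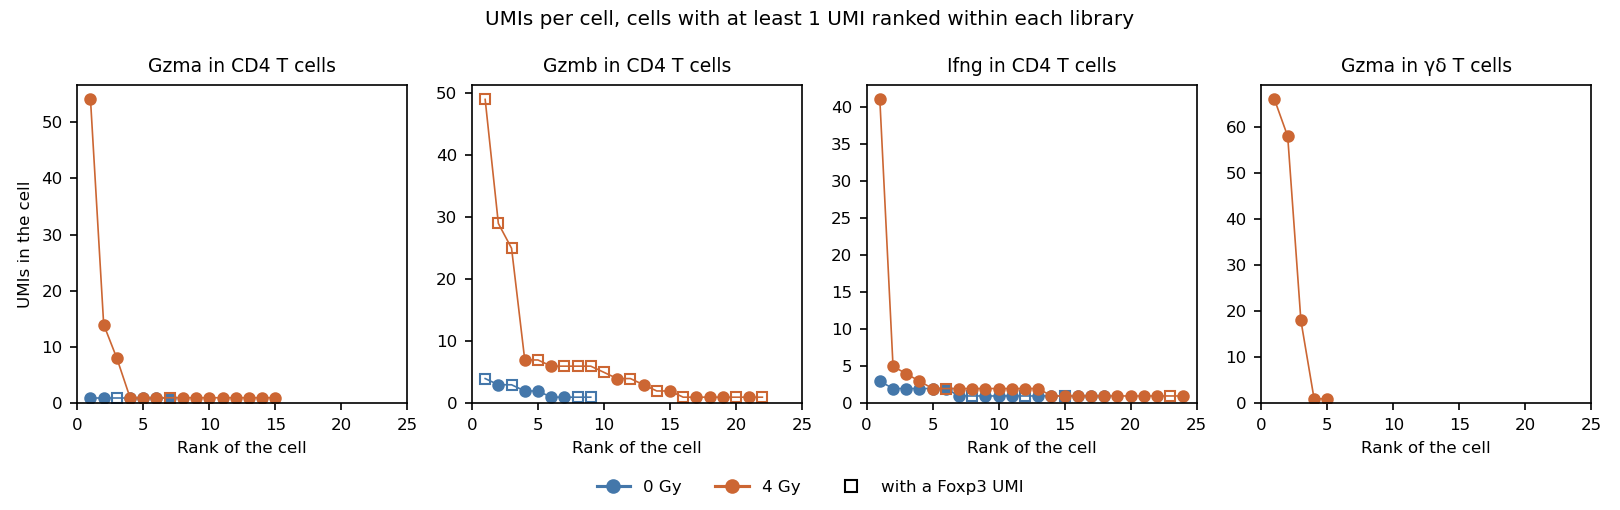
UMIs per cell (linear axis) of cells ranked by their UMIs of Gzma, Gzmb and Ifng in CD4 cells and of Gzma in γδ cells, at 0 Gy (blue) and 4 Gy (orange); open squares are cells with a Foxp3 UMI. The curves at 4 Gy are led by 1 to 3 cells, which are Foxp3-positive for Gzmb (49, 29 and 25 UMIs), and γδ cells at 0 Gy had no Gzma UMI.

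In γδ T cells, 38 and 78 cells in all, 3 members had enough UMIs, of which 2 were higher (Gzma and Gzmb) and 0 lower, against 27.1% of 2989 genes past the fold (13.6% higher and 13.5% lower). Gzma and Gzmb reached the 20 UMIs only through the 4 Gy library, so the count describes these cells and supports no direction. With a minimum of 10 UMIs 7 members were measured, 3 higher and 1 lower. Gzma had 0 UMIs at 0 Gy and 144 at 4 Gy (606 CPM, 511 to 714), which is 28.7-fold a floor of 3 counts in the 0 Gy library (21.1 CPM). The lower counting limit of the ratio was 23.1, and 12.2 without the richest cell of each library. At 4 Gy 5 of 78 cells had a Gzma UMI, and 3 of them, with 66, 58 and 18 UMIs, held 142. The cells with 66 and 18 UMIs also had 20 and 10 UMIs of NK gate genes, which were found in 36.8% of γδ cells at 0 Gy and 26.9% at 4 Gy. A count of 0 in 38 cells allows a share of up to 7.89% by the floor of 3 counts (9.25% by the exact binomial limit), and the share at 4 Gy was 6.41%, so a difference in the share of Gzma-positive γδ cells was not detectable at this depth. Summed neutrophil markers in γδ cells stood at 7.04 and 71.6 CPM, macrophage markers at 63.3 and 92.6 CPM and B cell markers at 42.2 and 67.4 CPM, and their part in these values was not tested.

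Gzmb in γδ cells had 1 UMI at 0 Gy and 20 at 4 Gy, in 1 and 4 cells, a ratio of 12.0 (1.92 to 496). Nkg7 was broadly present, in 81.6% and 74.4% of γδ cells, at 901 CPM (751 to 1071) and 1107 CPM (978 to 1250), a ratio of 1.23 (0.992 to 1.53). Fasl had 3 and 16 UMIs (3.19, 0.914 to 17.1), Prf1 6 and 12, Tbx21 9 and 10, Eomes 7 and 10, Gzmm 3 and 2, Ifng 1 and 2, and Gzmk 0 at both doses.

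**Figure D5:**
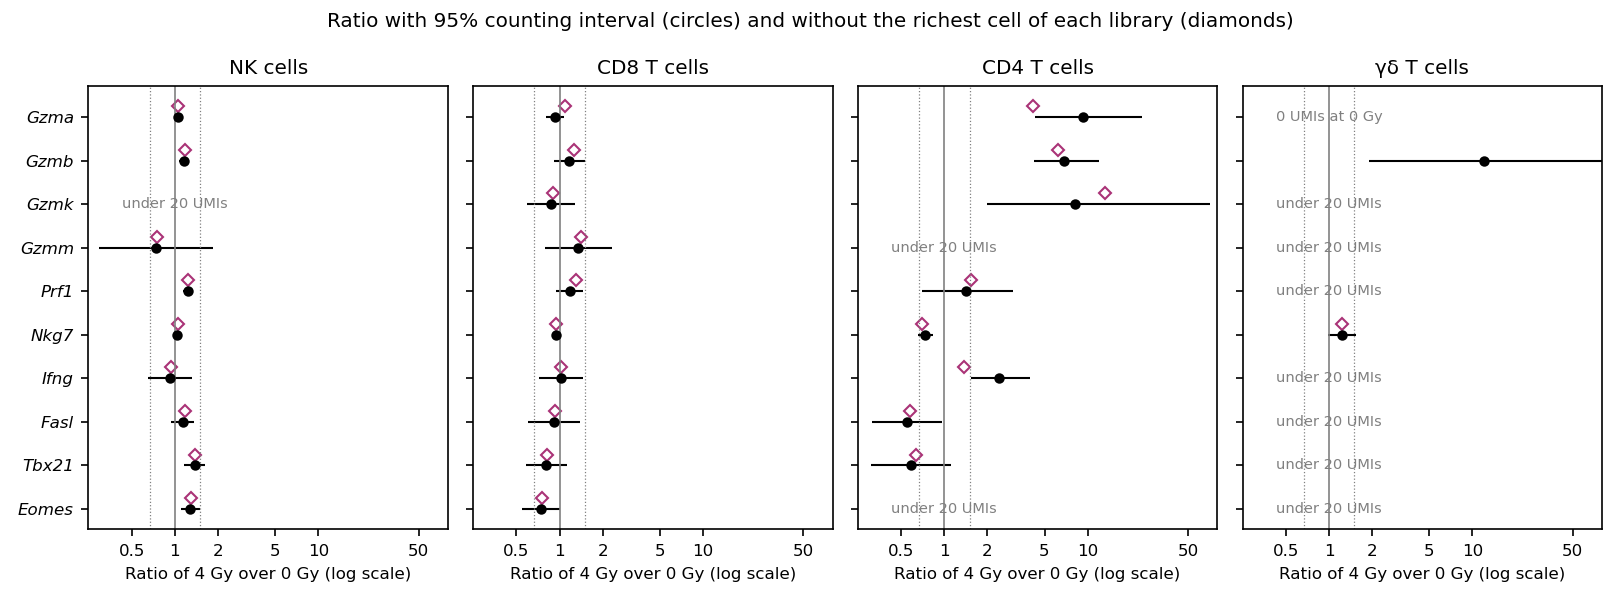
Ratio of 4 Gy over 0 Gy for each gene (log axis) in NK, CD8 T, CD4 T and γδ T cells, with 95% counting intervals (circles) and without the richest cell of each library (diamonds); dotted lines mark 1.5-fold. In NK and CD8 cells every measured member lies between the lines, and in CD4 cells Gzma, Gzmb, Gzmk and Ifng lie to the right, with the Ifng diamond back inside.

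T cells that fell in none of the CD8, CD4 and γδ gates (436 and 784 cells) were kept apart. They are cells with no UMI of a coreceptor or of Trdc, and cells left out of those gates for a mix of these genes or of Trdc with Trac. Gzmb in them was at 49.7 and 117 CPM, a ratio of 2.35 (1.85 to 3.02), and at 36.5 and 72.2 CPM without cells that had an NK gate gene. Prf1 was at 28.2 and 47.8 CPM (1.69, 1.21 to 2.41), and the ratio was 1.29 (0.889 to 1.89) without the richest cell. Without cells that had an NK gate gene, Prf1 was at 22.5 and 20.1 CPM. Gzma, within 1.5-fold, was at 123 and 160 CPM, and at 23.2 and 10.0 CPM without those cells. Of 9 measured members 2 were higher (Gzmb and Prf1) and 1 lower (Ifng), and no count over all genes was made here. Ifng was at 17.5 and 4.78 CPM (31 and 12 UMIs; 0.273, 0.128 to 0.547).

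Other genes of the cytotoxic programme were read from 6 lists with 51 genes, 45 of them in the tables: granule packaging and release, granzyme relatives and inhibitors, transcription factors, cytokine receptors, other secreted effectors, and receivers and targets. In NK cells 5 of 38 measured genes were higher and 0 lower, against 12.0% and 5.55% of all genes. Il18rap, a chain of the IL-18 receptor, was at 298 and 496 CPM (1.67, 1.47 to 1.89), and Serpinb9, the inhibitor of granzyme B, at 281 and 442 CPM (1.57, 1.38 to 1.79). Rab27a, which docks granules at the membrane, was at 36.4 and 71.5 CPM (1.97, 1.39 to 2.83), in 35 and 110 cells. Il12rb1, a chain of the IL-12 receptor, was at 12.4 and 20.7 CPM from 15 and 37 UMIs (1.67, 0.893 to 3.27). Il12rb1 reached the minimum through the 4 Gy library, so its call supports no direction. The granule genes as a list had a median log2 ratio of 0.00 in NK cells and the cytokine receptors 0.27, beside 0.07 over all genes.

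In CD8 cells 2 of 40 measured genes of these lists were higher and 4 lower, against 9.51% and 5.91% of all genes. Ccl4, a chemokine of activated lymphocytes, was at 585 and 277 CPM (0.474, 0.436 to 0.514), but 1 cell at 0 Gy held 687 of its 1324 UMIs. Irf8, a transcription factor, was at 59.2 and 33.9 CPM (0.572, 0.445 to 0.735), Zeb2, a factor of terminal effector cells, at 50.8 and 32.3 CPM (0.635, 0.488 to 0.827) and Serpinb6b, a serpin, at 47.7 and 30.1 CPM (0.632, 0.481 to 0.830).

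In CD4 cells 3 of 39 were higher and 5 lower, against 9.17% and 9.66% of all genes. Ccl4 was at 65.0 and 419 CPM (6.44, 4.98 to 8.46), found in 10 and 24 cells with at most 25 and 101 UMIs. Id2, a factor of effector and memory cells, was at 594 and 336 CPM (0.566, 0.50 to 0.640), Il18r1, the other chain of the IL-18 receptor, at 192 and 125 CPM (0.653, 0.528 to 0.806) and Ctsw, a granule cathepsin, at 147 and 93.6 CPM (0.637, 0.498 to 0.813). In γδ cells 3 of 22 were higher and 3 lower, against 13.6% and 13.5% of all genes. Il2rb, the shared receptor chain for IL-2 and IL-15, was at 359 and 581 CPM there (1.62, 1.17 to 2.28), and Il18r1 at 303 and 181 CPM (0.599, 0.383 to 0.935). Socs1, a brake on cytokine signalling, was at 141 and 80 CPM (0.569, 0.287 to 1.12). Lamp1, a granule membrane protein, was at 56.3 and 122 CPM from 8 and 29 UMIs (2.17, 0.968 to 5.49). Lamp1 reached the minimum through the 4 Gy library, so its call supports no direction.

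Over 11 classes and splits at both doses (22 points of log2 CPM that share 2 libraries), the genes whose pattern was most like that of Gzma were Klra7 (r = 0.96), Arsb (0.94), Klrb1a (0.94), Klra13-ps (0.94) and Klra8 (0.93). For Gzmb they were Sytl3 (0.94), Klrg1 (0.93), Camk2n1 (0.92), Osbpl3 (0.90) and Adora2a (0.89). For Ifng they were Gabarapl2 (0.85), Nsmaf (0.84), S100a13 (0.84), Ndfip1 (0.84) and Sh2d2a (0.84).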

How the data were processed

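Single-cell RNA-seq of 2 CD45-positive libraries was compared by dose, with the CD45-negative libraries as background. For each library the authors deposited a table of log2 values, cells by 20640 genes. STAR, Partek, Seurat and mm10 are named without roles or versions, per the submitters' processing notes, and the steps taken with each are not given in the sources used here. Undoing the log2 of the deposited values and taking off 1 gave CPM in every cell, and 99.9993% to 99.9996% of these values were whole multiples of the smallest, within a tolerance of 0.02, so UMI counts were recovered from them. The plan had been written for counts.

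Doublets were scored with Scrublet (scanpy 1.11.5, expected rate 0.8% per 1000 barcodes). Its threshold marked 11 barcodes (0.203%) at 0 Gy and 608 (6.33%) at 4 Gy, so in both libraries the barcodes with the highest scores were removed, in number equal to the expected rate. T cells had at least 2 UMIs of Cd3d, Cd3e and Cd3g. They were split by a UMI of Cd8a or Cd8b1, of Cd4, or of Trdc without Trac, leaving out cells with more than 1 of these. NK cells had at least 2 UMIs of Ncr1, Klrb1c and Klre1 and none of Cd3d, Cd3e, Trac, Cd4 and Cd8b1. One gene of the set that defines naive-like cells is not reported here. T and NK gates allowed at most 1 UMI of B cell genes and 1 of myeloid genes.

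UMIs were summed per gate and given as CPM of the gate. These are 3′ tags, 1 per molecule, and were not scaled by length. Intervals (95%) are exact Poisson for levels, exact conditional binomial for ratios and Clopper-Pearson for shares (scipy 1.17.1), and cover counting error only. A member was measured with at least 20 UMIs over both libraries. Floors are 3 counts per library. All members were named. Other genes came from the 6 lists, at most 4 per gate past 1.5-fold, those with most UMIs first, and genes of like pattern were the 5 with the highest Pearson r of log2(CPM + 10) among genes with a mean of at least 20 CPM. Members, gates and lists were chosen with earlier results of these data known. The calculations were tested on simulated data. Il17a, Fcer1a, Vamp7, Gzmd, Gzme, Gzmf, Gzmg and Gzmn are not analysed here. Alternatives covered the gates, doublets, depth, summary over cells, scaling, count minimum, fold and cycling cells. Leaving out the richest cell, or T cells with an NK gate gene, was chosen after seeing the data.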

Additional observations from a re-analysis of the deposited data

Results flagged for a closer look

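Nkg7 pointed in opposite directions in the lymphocyte classes. Its ratio of 4 Gy over 0 Gy was 1.04 (95% counting interval 1.0 to 1.09) in NK cells (0.995 with median-of-ratios scaling), 0.945 (0.896 to 0.997) in CD8 T cells and 0.738 (0.652 to 0.837) in CD4 T cells. With 1 library per dose the difference between the classes was not tested. Within splits the ratio was 1.02 (0.940 to 1.10) in naive-like and 1.07 (0.993 to 1.16) in memory-like CD8 cells, with intervals that include 1. In CD4 cells it was 1.15 (1.01 to 1.32) in memory-like, 0.749 (0.460 to 1.23) in naive-like and 0.818 (0.471 to 1.44) in Foxp3-positive cells. The direction of all CD4 cells was therefore not that of memory-like CD4 cells, and the intervals of the naive-like and Foxp3-positive cells include 1.

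Gzma did so in the splits of CD8 T cells, with ratios of 2.09 (1.69 to 2.61) in memory-like cells and 0.496 (0.403 to 0.608) in naive-like cells. The richest naive-like cell at 0 Gy held 99 of 207 UMIs, and without the richest cell of each library the naive-like ratio was 0.783 (0.607 to 1.01) and no longer past 1.5-fold. This difference was not tested either.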

How the results depend on the processing

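With 1 library per dose nothing here measures the spread between mice, and small gates limit the depth. In NK cells 0 members were past the fold under each alternative run. In CD8 cells, against 0 higher and 0 lower, 1 was higher on thinned cells, without cycling cells and without cells that had an NK gate gene, and 1 was lower on thinned cells, with the mean over cells and without cycling cells. In CD4 cells 2 were lower in the main analysis, 1 with doublets kept, on thinned cells, with at least 50 counts and without cycling cells, 0 with the stricter gate and at 2-fold, and 3 with the mean over cells; the count of 4 higher stayed within 3 to 5. In γδ cells 2 were higher, compared with 5 under a gate minimum of 1 UMI and 4 with doublets kept, and with 1 under the stricter gate, on thinned cells, with at least 50 counts, without the richest cell and without cells that had an NK gate gene; 1 was lower with at least 10 counts, against 0. The thinned cells of this section are a separate random draw from the thinned cells whose shares are plotted for NK and CD8 cells. Of the measured thinned shares of cells with a UMI in this draw, 0 of 8 differed by 1.5-fold in NK cells. The counts were 4 of 9 in CD8 cells, 4 of 6 in CD4 cells and 0 of 1 in γδ cells. Without thinning these were 1 of 9, 2 of 10, 5 of 8 and 2 of 5. A share was measured with at least 10 cells holding a UMI over both libraries, and no such count was made over all genes. The CD8 count depended on the draw. Among the plotted CD8 shares, only Gzmb (2.06% at 0 Gy and 3.37% at 4 Gy) and Ifng (1.83% and 1.12%) were past 1.5-fold. The Gzmk ratio of thinned CD8 cells was 2.37 in this section's draw, whereas its plotted shares were 2.29% and 2.47%. No ratio of a named member difference in all CD4 or all γδ cells changed its side of 1. Gzma in γδ cells, with 0 UMIs at 0 Gy, had no such ratio. Differences in the splits and in T cells outside the gates were rerun at most without the richest cell or cells with an NK gate gene. Genes of the 6 lists were not rerun. Over the single-member ratios, the ratio of the alternative lay within the counting interval of the reported ratio in 217 cases and outside it in 30. Gzma in CD4 cells ranged from 1.31 to 24.5, Gzmb from 3.87 to 63.4 and Ifng from 1.38 to 9.78; the cause was not tested. No paired analysis was possible because each group is 1 library.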
